A study of Homo sapiens with 16 samples.

Results

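Genes of homologous recombination and mismatch repair were followed while the fusion oncogene of an Ewing sarcoma line was silenced for up to 96 h. The genes were 8 named repair genes, and every probe set that the platform annotation pairs with exactly 1 of these symbols was taken at every time. Of the 8 listed genes, 7 had such a probe set (BRCA1, RAD51AP1, RAD54L, BLM, EXO1, MSH6 and PARP1), among 11963 genes that had one in the series. BRCA2 was not analysed here. The 7 genes had 10 probe sets, of which 9 reached a log2 value of 4 on at least 2 arrays and were tested.

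The cells were A673, an established Ewing sarcoma line driven by EWS-FLI1, a fusion of EWSR1 and FLI1 that acts as a transcription factor. All of them belonged to 1 clone, Asp14, in which doxycycline switches on a knockdown of the fusion, and all were kept under Zeocin and Blasticidin, which select for the hairpin vector and the TR vector. Total RNA was hybridised to 16 Affymetrix arrays. The control group, 4 arrays, was taken at 0 h, when the drug was added. Treated cells had doxycycline at 1 ug/ml for 18 h or 36 h, with 3 arrays each, or for 53 h, 72 h or 96 h, with 2 arrays each. All untreated arrays used here were of 0 h, so loss of the fusion, doxycycline itself and time in culture cannot be told apart. Nothing in the labels says that numbered replicates were grown apart. The p-values therefore reflect the differences among these arrays, which may be technical.

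Homologous recombination repairs a DNA double-strand break by copying the intact sister molecule. It therefore works mainly in S and G2 phase, and many of its genes are transcribed as cells enter S phase. The broken ends are first cut back to single strands, a recombinase filament then searches for and invades the sister, and helicases and nucleases take the joined molecules apart. Mismatch repair follows the replication fork, where it finds mispaired bases, removes the new strand around them and lets it be copied again. PARP1 binds breaks and marks them with ADP-ribose chains. In Ewing sarcoma these pathways are of interest because cell lines that carry the fusion are known to respond to PARP inhibitors.

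BRCA1 acts in end resection and in loading the recombinase. RAD51AP1 stimulates strand invasion, and RAD54L is a motor protein that remodels the recombinase filament and the invaded duplex. BLM is a helicase that takes part both in long resection and in taking crossed strands apart. EXO1 is a nuclease that serves resection and also digests the mispaired strand. MSH6 is a subunit of the heterodimer that recognises base mismatches.

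Promoter sequence was searched on both strands, from 250 bases before to 50 bases after each RefSeq start (GRCh38.p14), with 13 promoters for the 7 genes. The E2F letters used were TTTCCCGC, TTTGGCGC, TTTCGCGC and TTTGCCGC, chosen because the title of the series names E2F. They were found in 2 of the 13 promoters, 1 each of EXO1 and MSH6, and in 3.31% of all 35116 promoters. Those windows are shown with the E2F letters in capitals. In both the match lies just after the start, which is 30 bases from the right end of each window.
EXO1, chr1:241848114-241848233, plus strand: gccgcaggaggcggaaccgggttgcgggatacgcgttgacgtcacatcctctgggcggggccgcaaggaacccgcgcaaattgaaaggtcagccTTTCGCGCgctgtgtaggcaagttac
MSH6, chr2:47783055-47783174, plus strand: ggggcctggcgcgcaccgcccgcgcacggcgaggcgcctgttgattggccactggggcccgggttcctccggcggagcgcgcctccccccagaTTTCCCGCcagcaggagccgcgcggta

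The letters CCAAT, the core of the site of the factor NF-Y, were in 6 of the 13 promoters, against 34.6% of all promoters. They were in at least 1 promoter of 5 of the 7 genes, which was not counted over all genes. The BLM window before the start is shown because it held 3 matches, and it was chosen after the matches were seen. Capitals mark CCAAT or the same letters read from the other strand.
BLM, chr15:90717196-90717345, plus strand: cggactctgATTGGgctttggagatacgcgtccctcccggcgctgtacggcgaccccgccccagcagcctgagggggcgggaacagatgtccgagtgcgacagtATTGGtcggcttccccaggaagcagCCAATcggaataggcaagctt

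The cell cycle homology letters TTTGAA or TTCGAA were in 16.4% of all promoters, the ETS letters CCGGAAGT in 4.14% and the repeat GGAAGGAA in 3.67%, and 0 of the 13 promoters held any of them. The repeat was searched because EWS-FLI1 is known to bind GGAA repeats. A match or its absence describes these letters in this window alone.

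The knockdown was read on FLI1, whose 3′ part belongs to the fusion transcript. Where its probe set lies was not checked. It was lower at 18 h than at 0 h, with a log2 change of -3.20 ± 0.15 (SE), and still lower at 96 h, with a change of -3.35. FLI1 did not pass the test between 96 h and 72 h (log2 change -0.27, limma adjusted p = 0.335). The upper quartile of log2 values lay between 8.08 and 8.18 on all arrays. All 7 measured Ewing sarcoma markers were above log2 4 on some array, and their mean log2 level was 8.14 to 8.33 at 72 h, against 10.97 to 11.33 at 0 h. All 7 blood markers, all 6 epithelial markers and 4 of 5 endothelial markers stayed below log2 4 on every array. The exception, KDR, an endothelial growth factor receptor, rose at 72 h against 0 h, with a log2 change of 3.72 ± 0.30. Replicates 2 and 3 of 0, 18 and 36 h were closer to each other than the other pairs of these times, with SDs of their differences of 0.178 to 0.196 against 0.382 to 0.527 on the log2 scale. Results in which averaging these 2 arrays ends a call are given with that value.

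All 7 genes were lower than at 0 h by 36 h, stayed low at 53 and 72 h, and were higher again at 96 h than at 72 h. BRCA1, RAD51AP1, RAD54L, BLM and EXO1 had log2 changes between -3.11 and -4.88 at 72 h against 0 h. Those of MSH6 and PARP1 were -1.04 and -1.34. RNA was taken from the whole culture, so fewer cells in S and G2 phase and less of each transcript per cell cannot be told apart. The 5 comparisons with 0 h share its 4 arrays.

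**Figure D1:**
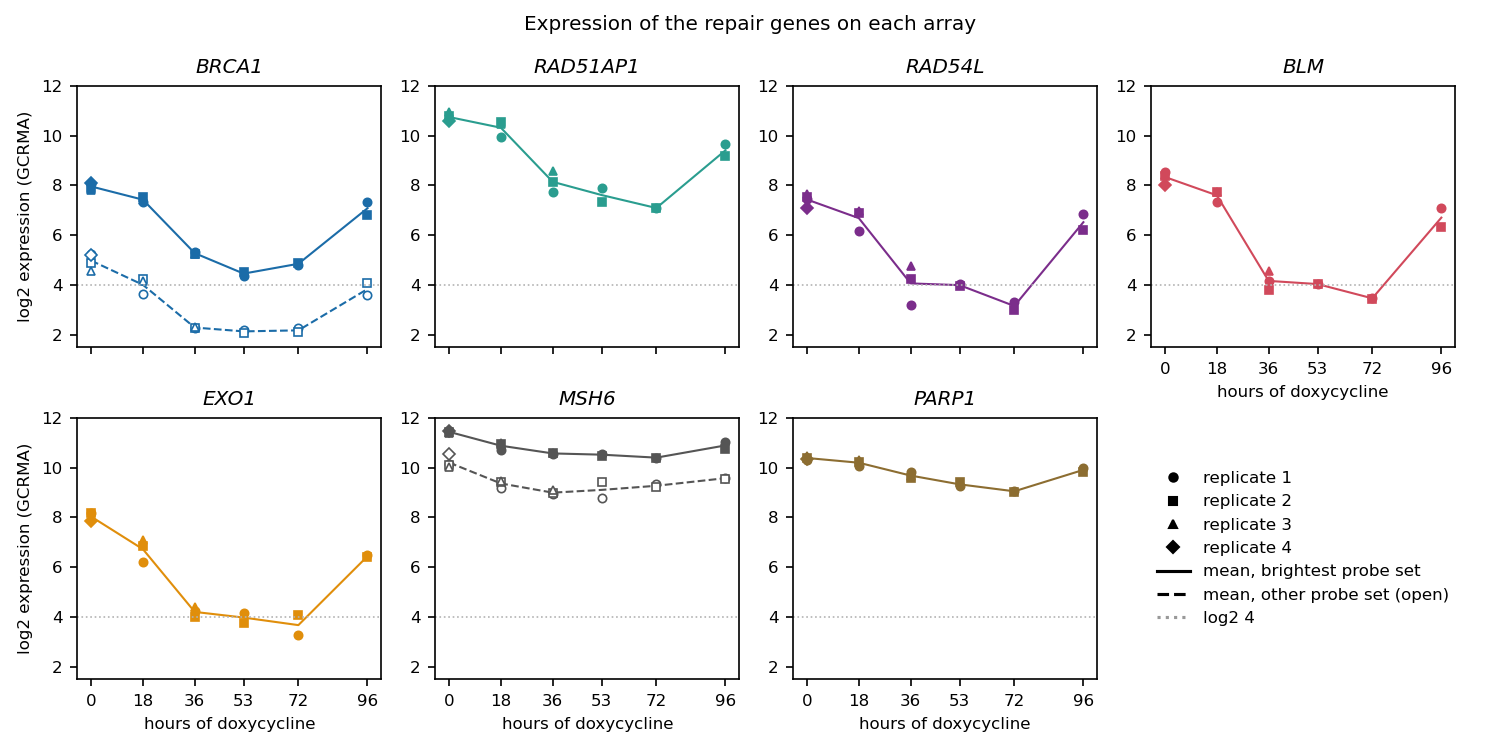
Log2 expression of each repair gene on each of the 16 arrays against hours of doxycycline. Points are arrays, with the shape giving the replicate number, solid lines join the means of the brightest probe set, dashed lines with open points give the other tested probe set, and the dotted line marks log2 4. All panels share 1 scale, and every curve lies lower at 36, 53 and 72 h than at 0 h and higher at 96 h than at 72 h.

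The brightest BRCA1 probe set (204531_s_at) had log2 levels of 8.05, 7.89, 7.83 and 8.08 at 0 h, 7.35, 7.52 and 7.41 at 18 h, and 5.34, 5.25 and 5.24 at 36 h. It then had 4.37 and 4.54 at 53 h, 4.81 and 4.89 at 72 h, and 7.34 and 6.83 at 96 h. Arrays of any treated time lay below all 4 arrays of 0 h, and the lowest pair was that of 53 h. BRCA1 fell, and its log2 level changed by -0.53 ± 0.12 at 18 h (SE, limma adjusted p = 0.00694), -2.68 ± 0.12 at 36 h (2.16e-09), -3.51 ± 0.14 at 53 h (7.49e-10) and -3.11 ± 0.14 at 72 h (6.18e-10), each against 0 h. At 72 h its level was 8.64-fold lower than at 0 h. At 96 h it was still lower than at 0 h, with a change of -0.88 ± 0.14 (0.000131).

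A second BRCA1 probe set (211851_x_at) had levels of 5.24, 4.88, 4.57 and 5.21 at 0 h and 3.62, 4.24 and 4.15 at 18 h, then 2.07 to 2.33 on the 7 arrays of 36, 53 and 72 h, and 3.61 and 4.06 at 96 h. It passed the test at the same 5 times, with log2 changes of -0.97, -2.69, -2.85, -2.81 and -1.14 in order of time. From 36 to 72 h it lay below log2 4, where these values carry little information on size, so the brighter probe set is the one described.

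RAD51AP1 (204146_at) had log2 levels of 10.67, 10.80, 10.97 and 10.57 at 0 h, 9.94, 10.56 and 10.46 at 18 h, and 7.72, 8.14 and 8.57 at 36 h. It had 7.91 and 7.32 at 53 h, 7.08 and 7.10 at 72 h, and 9.65 and 9.18 at 96 h. All treated arrays were below the 0 h arrays, but at 18 h by little. The log2 change at 18 h, -0.43 ± 0.21, did not pass (limma adjusted p = 0.153), and it passed with the replicate number as a block (-0.49, 0.0322). That block fit used the arrays of 0, 18 and 36 h alone. RAD51AP1 fell, and its log2 level changed by -2.61 ± 0.21 at 36 h (2.18e-07), -3.14 ± 0.24 at 53 h (1.15e-07) and -3.66 ± 0.24 at 72 h (1.67e-08), when it was 12.6-fold lower than at 0 h. At 96 h it was lower than at 0 h, with a change of -1.34 ± 0.24 (0.000329).

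RAD54L (204558_at) had log2 levels of 7.47, 7.53, 7.64 and 7.10 at 0 h, 6.18, 6.90 and 6.97 at 18 h, and 3.17, 4.24 and 4.77 at 36 h. It had 4.03 and 3.95 at 53 h, 3.31 and 3.00 at 72 h, and 6.86 and 6.19 at 96 h. The 3 arrays of 36 h were spread more widely for RAD54L than for the other genes, yet all lay well below 18 h. Its log2 change of -0.75 ± 0.32 at 18 h did not pass (limma adjusted p = 0.0979). With the replicate block on the arrays of 0, 18 and 36 h alone it passed (-0.86, 0.044). RAD54L fell, and its log2 level changed by -3.37 ± 0.32 at 36 h (8.11e-07), -3.44 ± 0.36 at 53 h (2e-06) and -4.28 ± 0.36 at 72 h (1.8e-07). Both arrays of 72 h were below log2 4, which makes it at least 10.8-fold lower at 72 h than at 0 h. Such bounds compare the mean log2 level of the higher time with log2 4.

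The RAD54L level at 96 h was lower than at 0 h, with a log2 change of -0.91 ± 0.36 (limma adjusted p = 0.043), the highest adjusted p among the calls against 0 h. With the replicate block the change was -0.84 (adjusted p = 0.0652). Without replicate 2 of 96 h the log2 change was -0.58 (adjusted p = 0.327). With replicates 2 and 3 averaged it was -0.86 (adjusted p = 0.0779).

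BLM (205733_at) had log2 levels of 8.55, 8.38, 8.41 and 8.01 at 0 h, 7.33, 7.73 and 7.76 at 18 h, and 4.15, 3.79 and 4.55 at 36 h. It had 4.05 and 4.02 at 53 h, 3.47 and 3.45 at 72 h, and 7.09 and 6.33 at 96 h. The groups of 18 h and of 36 h lay far apart, with no array between log2 4.55 and 7.33. BLM fell, and its log2 level changed by -0.74 ± 0.21 at 18 h (limma adjusted p = 0.0195), -4.18 ± 0.21 at 36 h (3.73e-09), -4.31 ± 0.24 at 53 h (6.14e-09) and -4.88 ± 0.24 at 72 h (1.11e-09). Since both arrays of 72 h were below log2 4, it was at least 20.3-fold lower than at 0 h. At 96 h it remained lower than at 0 h, with a change of -1.63 ± 0.24 (5.64e-05).

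EXO1 (204603_at) had log2 levels of 8.16, 8.17, 7.96 and 7.85 at 0 h, 6.21, 6.86 and 7.10 at 18 h, and 4.22, 4.00 and 4.38 at 36 h. It had 4.18 and 3.77 at 53 h, 3.27 and 4.07 at 72 h, and 6.47 and 6.40 at 96 h. Of the 7 genes it had the lowest change at 18 h, when all 3 arrays already lay clear of 0 h. EXO1 fell, and its log2 level changed by -1.31 ± 0.22 at 18 h (limma adjusted p = 0.000978), -3.83 ± 0.22 at 36 h (1.28e-08), -4.06 ± 0.25 at 53 h (1.75e-08) and -4.37 ± 0.25 at 72 h (5.22e-09). A single 72 h array was below log2 4, so the size of that last change is uncertain. At 96 h it was lower than at 0 h, with a change of -1.60 ± 0.25 (0.00012).

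MSH6 (202911_at) had log2 levels of 11.46, 11.43, 11.39 and 11.49 at 0 h, 10.71, 10.95 and 10.99 at 18 h, and 10.54, 10.61 and 10.58 at 36 h. It had 10.57 and 10.48 at 53 h, 10.40 and 10.41 at 72 h, and 11.04 and 10.75 at 96 h. The arrays of 0 h lay close to each other, and all treated arrays lay below them. MSH6 fell, and its log2 level changed by -0.56 ± 0.08 at 18 h (limma adjusted p = 0.000316), -0.87 ± 0.08 at 36 h (6.97e-07), -0.92 ± 0.09 at 53 h (1.22e-06) and -1.04 ± 0.09 at 72 h (2.72e-07), when it was 2.05-fold lower than at 0 h. At 96 h it was lower than at 0 h, with a change of -0.55 ± 0.09 (0.000175).

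The second MSH6 probe set (211450_s_at) had levels of 10.15, 10.10, 10.04 and 10.54 at 0 h and 9.19, 9.44 and 9.48 at 18 h. It had 8.93, 8.98 and 9.08 at 36 h, 8.80 and 9.42 at 53 h, 9.34 and 9.21 at 72 h, and 9.60 and 9.56 at 96 h. It passed the test at all 5 times, with log2 changes of -0.84, -1.21, -1.10, -0.93 and -0.63 in order of time, and was lowest at 36 h where the first probe set was lowest at 72 h. The third (211449_at) stood at 2.48 to 2.55 on all arrays and was not tested.

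PARP1 (208644_at) had log2 levels of 10.31, 10.40, 10.49 and 10.36 at 0 h, 10.07, 10.22 and 10.31 at 18 h, and 9.81, 9.58 and 9.67 at 36 h. It had 9.26 and 9.41 at 53 h, 9.06 and 9.04 at 72 h, and 9.99 and 9.84 at 96 h. The highest 18 h array lay just below the lowest 0 h array, and the later ones lay further below. The change at 18 h, -0.19 ± 0.08, did not pass (limma adjusted p = 0.111). PARP1 fell, and its log2 level changed by -0.71 ± 0.08 at 36 h (6.6e-06), -1.06 ± 0.09 at 53 h (4.89e-07) and -1.34 ± 0.09 at 72 h (3.59e-08), when it was 2.53-fold lower than at 0 h. At 96 h it was lower than at 0 h, with a change of -0.48 ± 0.09 (0.000714).

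**Figure D2:**
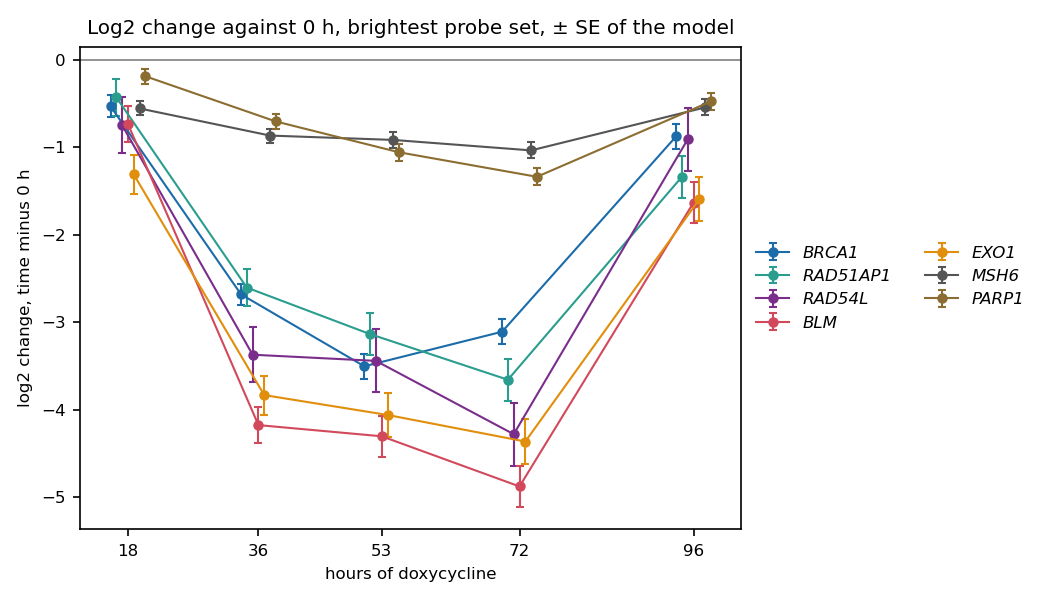
Log2 change of the brightest probe set of each gene at 18, 36, 53, 72 and 96 h minus 0 h, with bars of 1 SE of the limma model, against hours of doxycycline. Points are shifted sideways to keep them apart. MSH6 and PARP1 stay above -1.5 throughout, while the other 5 genes lie between -2.6 and -4.9 from 36 to 72 h.

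Counted over probe sets, 6 of 9 passed the test as lower at 18 h against 0 h, where 14% of all 12257 probe sets did. At 36 h it was 9 of 9 against a background of 31.6%, at 53 h 9 of 9 against 32.9%, at 72 h 9 of 9 against 36.7%, and at 96 h 9 of 9 against 34%. In each of these comparisons the arrays of the 2 times did not overlap for any of the 9. Overlap was not counted over all probe sets, so this has no background beside it. The median log2 change of the 7 genes, by the brightest probe set, was -0.56, -2.68, -3.44, -3.66 and -0.91 in order of time. Over all probe sets tested the medians lay between -0.10 and 0.01.

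Array 1 of 18 h was below its group mean for all 7 genes, with a mean deviation of -0.29 on the log2 scale. Without it 5 of the 9 probe sets passed at 18 h. The one lost was BLM, with a log2 change of -0.60 (limma adjusted p = 0.0972). The BLM change was -0.78 (adjusted p = 0.0507) with replicates 2 and 3 of 0, 18 and 36 h averaged. EXO1, the furthest moved at 18 h, still passed without that array, with a change of -1.05.

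For all of these genes but MSH6, the step between 18 and 36 h held the largest drop. At 36 h against 18 h, 8 of 9 probe sets were lower, against 21.2% of all probe sets. The arrays of the 2 times did not overlap for any of the 9, which was not counted over all probe sets. BLM fell by 3.44 ± 0.22 in that step (limma adjusted p = 2.27e-07). The log2 change was -2.62 ± 0.34 for RAD54L (4.83e-05), -2.52 ± 0.24 for EXO1 (4.18e-06), -2.18 ± 0.23 for RAD51AP1 (9.29e-06) and -2.15 ± 0.13 for BRCA1 (1.72e-07). PARP1 fell by 0.52 ± 0.09 (0.000501). MSH6 fell by 0.31 ± 0.09 (0.0108) on its first probe set. Its second had a change of -0.37 ± 0.15 that did not pass (0.0728). It did with the replicate block on the arrays of 0, 18 and 36 h alone (0.0121). The MSH6 call was lost with replicates 2 and 3 of 0, 18 and 36 h averaged, at a change of -0.28 (adjusted p = 0.12), and without replicate 3 of 18 h, at -0.26 (0.058).

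The ACTB 3′ minus 5′ signal, a measure of RNA integrity, was 2.09 to 2.45 at 36 h, against 1.88 to 2.00 at 18 h and 1.47 to 2.06 at 0 h. With this signal as a covariate, 9 of 9 probe sets were still lower at 36 h than at 0 h, and the RAD54L call at 96 h against 0 h was lost (-0.84, adjusted p = 0.0718).

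Between 36 and 72 h few of the changes passed the test. At 36 h the mean log2 levels of RAD54L, BLM and EXO1 were already 4.06, 4.16 and 4.20. The second BRCA1 probe set stood at 2.29. Dim values are compressed, and whether this hid a further fall of these was not tested. At 53 h against 36 h, 2 of 9 probe sets were lower, where 5.27% of all probe sets were. BRCA1 had a log2 change of -0.82 ± 0.15 (limma adjusted p = 0.00351) and PARP1 one of -0.35 ± 0.10 (0.0399). The PARP1 call was lost when any of 9 single arrays was left out (replicates 2 or 3 of 0 h, 2 of 18 h, 1 or 3 of 36 h, and either of 53 h or 72 h), with changes of -0.28 to -0.43, and with replicates 2 and 3 averaged (-0.38, adjusted p = 0.109) or the replicate block (-0.32, 0.0791). At 72 h against 53 h, 0 of 9 passed the limma test, where 8.57% of all probe sets were lower. An unadjusted p under 0.05, in either direction, was reached by 2 of 9 and by 3437 of all 12257 probe sets. The 2 were PARP1, with a log2 change of -0.28, and BRCA1, which was higher. BRCA1 had a log2 change of 0.39 ± 0.16 there (adjusted p = 0.129), with both arrays of 72 h above both of 53 h. RAD54L had the lowest change of that step, -0.84 ± 0.41 (adjusted p = 0.208).

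At 96 h the genes were higher again than at 72 h. The test was passed by 8 of 9 probe sets as higher, where 14.5% of all probe sets were. No arrays of the 2 times overlapped for any of the 9. That was not counted over all probe sets and is easily met with 2 arrays per time. RAD54L rose by 3.37 ± 0.41 (limma adjusted p = 5.77e-05) and was at least 5.75-fold higher than at 72 h. BLM rose by 3.25 ± 0.27 (2.67e-06) and was at least 6.53-fold higher. EXO1 rose by 2.77 ± 0.29 (1.63e-05), RAD51AP1 by 2.32 ± 0.28 (4.66e-05) and BRCA1 by 2.23 ± 0.16 (7.92e-07).

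PARP1 rose by 0.86 ± 0.11 at 96 h against 72 h (limma adjusted p = 7.98e-05) and the first MSH6 probe set by 0.49 ± 0.10 (0.00405). The second MSH6 probe set had a change of 0.31 ± 0.19 that did not pass (0.272). Without replicate 1 of 96 h the first MSH6 probe set had a change of 0.35 (adjusted p = 0.0523). That array was above replicate 2 of 96 h for all 7 genes by the brightest probe set. As a share of the log2 difference between 72 h and 0 h, 78.7% was regained by RAD54L at 96 h, 71.8% by BRCA1, 66.5% by BLM, 64.3% by PARP1, 63.4% by EXO1 and by RAD51AP1, and 47.3% by MSH6. The shares of RAD54L and BLM rest on 72 h values below log2 4, and that of EXO1 on 1 such value of 2. By the second probe sets the share was 32.7% for MSH6 and 59.2% for BRCA1, the latter also on 72 h values below log2 4. The FLI1 change over this interval was -0.27 ± 0.19, which did not pass.

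**Figure D3:**
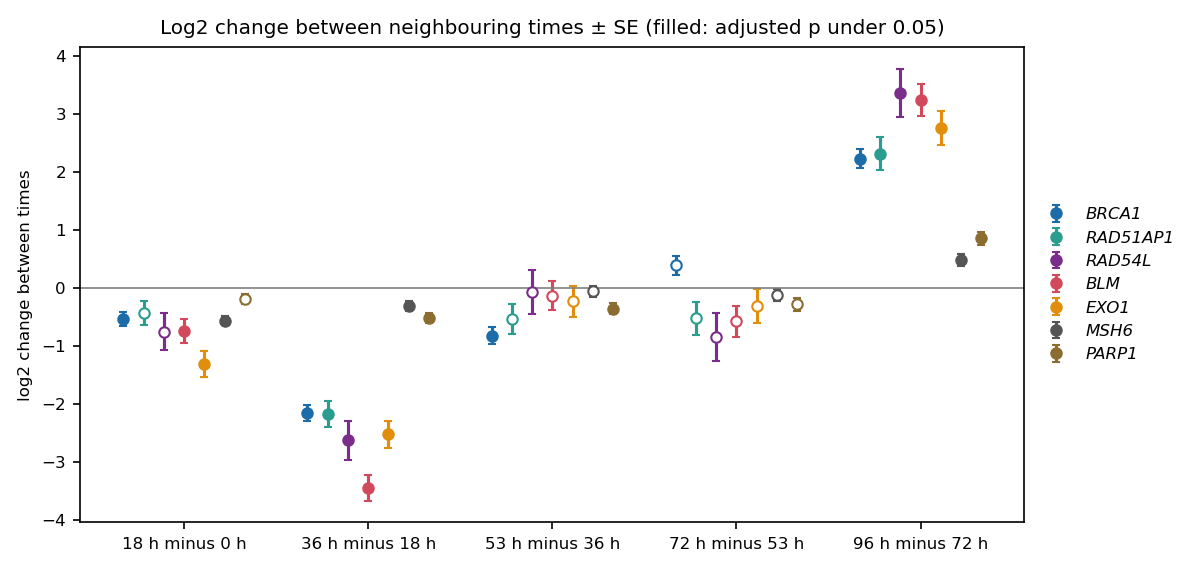
Log2 change of the brightest probe set of each gene between neighbouring times, later minus earlier, with bars of 1 SE of the limma model and filled points where the adjusted p is under 0.05. Points lie well below 0 at 36 h minus 18 h for all but MSH6 and PARP1, between -0.84 and 0.39 in the next 2 steps, and above 0 at 96 h minus 72 h.

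The likeness of the courses of 2 genes was measured as the root mean square difference of their 5 log2 changes against 0 h, which share the 0 h arrays. The measure is not scaled to size, so genes with small changes can lie close although their courses differ. At 18 h MSH6 changed by -0.56 and passed, while PARP1 changed by -0.19 and did not. The closest pairs were MSH6 with PARP1 at 0.235, BRCA1 with RAD51AP1 at 0.365 and BLM with EXO1 at 0.394, and the farthest was BLM with MSH6 at 2.77. Outside the list, by the same measure over 7297 genes, BRCA1 was nearest to RECQL4 (0.136) and POLA2 (0.156), and RAD51AP1 to POLE (0.134) and CENPU (0.162). RAD54L was nearest to ERCC6L (0.221) and E2F8 (0.267), BLM to GINS4 (0.286) and POLE2 (0.388), and EXO1 to PKMYT1 (0.215) and RRM2 (0.233). MSH6 was nearest to TRIM26 (0.070) and ATG16L1 (0.071), and PARP1 to SUMO3 (0.071) and DPAGT1 (0.084).

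Direct partners of these proteins were also lower at 72 h, but by unequal amounts. BARD1, which forms the ubiquitin ligase with BRCA1, had a log2 change of -2.58 ± 0.19 at 72 h against 0 h, then one of 1.72 ± 0.22 at 96 h against 72 h, and passed both tests. PALB2, which BRCA1 binds to bring in the recombinase loader, fell by 1.12 ± 0.12 at 72 h, and its change of 0.26 ± 0.14 at 96 h against 72 h did not pass (limma adjusted p = 0.223). RMI1 and TOP3A form a complex with BLM that dissolves crossed strands. At 72 h against 0 h RMI1 and TOP3A fell, with changes of -2.59 ± 0.16 and -1.24 ± 0.16, and at 96 h against 72 h they rose, by 1.59 ± 0.18 and 0.85 ± 0.19.

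PARP2, the closest relative of PARP1, fell by 1.90 ± 0.17 at 72 h against 0 h, then rose by 1.17 ± 0.20 at 96 h against 72 h. XRCC1, the scaffold that PARP1 activity brings to single-strand breaks, was higher at 36 h than at 0 h (log2 change 0.30, limma adjusted p = 0.0236), did not pass at 53 h (-0.26, 0.0766), and was lower at 72 h by a change of -0.55 ± 0.12. At 96 h against 72 h XRCC1 rose by 0.41 ± 0.14. E2F1, a transcription factor of S phase entry, had a log2 change of -1.88 ± 0.13 at 18 h against 0 h (limma adjusted p = 1.38e-06). E2F1 fell by 3.16 ± 0.15 at 72 h against 0 h and rose by 1.46 ± 0.18 at 96 h against 72 h.

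The wider pathways were counted by the brightest probe set of each gene, leaving out the 7 genes. Over all 7304 genes so measured, 39% were lower and 29.2% higher at 72 h than at 0 h, with a median log2 change of -0.08 over all probe sets. Of 21 tested homologous recombination genes, 19 were lower at 72 h and 1 was higher, with a median change of -1.24. The lowest were DNA2, a resection nuclease, at -3.69 ± 0.33, and PSMC3IP, which helps the recombinase invade, at -2.89 ± 0.18. The 1 that rose was ATM, the kinase that signals breaks, at 0.82 ± 0.18. At 18 h, 5 of the 21 were lower and 1 higher, with 14.4% of all genes lower and 14.4% higher.

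Of 10 tested mismatch repair genes, 9 were lower at 72 h than at 0 h, with a median change of -1.55. The lowest were RFC3, a clamp loader subunit, at -3.31 ± 0.23, and LIG1, a ligase, at -2.67 ± 0.21, and both also serve DNA replication. At 18 h, 4 of the 10 were lower. At 96 h against 72 h, 11 of the 21 recombination genes and 5 of the 10 mismatch repair genes were higher, where 16.8% of all genes were, with median changes of 0.85 and 0.93 against 0.01 over all probe sets.

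Genes that duplicate and divide the genome also fell and rose again, and their part in the result was not tested. Of 11 tested genes of the replicative helicase and its loading, 11 were lower at 18 h, with a median change of -0.71, and 11 at 72 h, with a median of -3.16. CDC45, a subunit of that helicase, was at least 22.7-fold lower at 72 h than at 0 h. In the steps of 53 h against 36 h and of 72 h against 53 h, 0 of the 11 passed either limma test. At an unadjusted p under 0.05 there were 1 and 0 of them, and 2980 and 3437 of all 12257 probe sets. Of the 15 tested mitotic genes, 0 passed the limma test at 18 h against 0 h, with a median change of -0.10. There 1 of them had an unadjusted p under 0.05, as did 4728 of all 12257 probe sets. At 36 h against 18 h all 15 were lower, with a median change of -1.49, where 22.5% of all genes were. All 11 helicase genes and all 7 repair genes were also lower in that step, with medians of -2.41 and -2.18. At 53 h against 36 h 14 of the 15 were lower, where 6.59% of all genes were, and at 72 h against 53 h 9 of the 15 were, where 10.3% of all genes were. In the steps of 53 h against 36 h and 72 h against 53 h, 2 and 0 of the 7 repair genes were lower. By 36 h RAD54L, BLM and EXO1 were already near log2 4, and whether this hid a further fall was not tested. By 72 h against 0 h all 15 mitotic genes were lower, with a median of -3.73. All 11 and all 15 were higher at 96 h than at 72 h, with median changes of 1.99 and 2.05. The 7 repair genes had medians of -0.56, -3.66 and 2.32 in the same 3 comparisons.

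**Figure D4:**
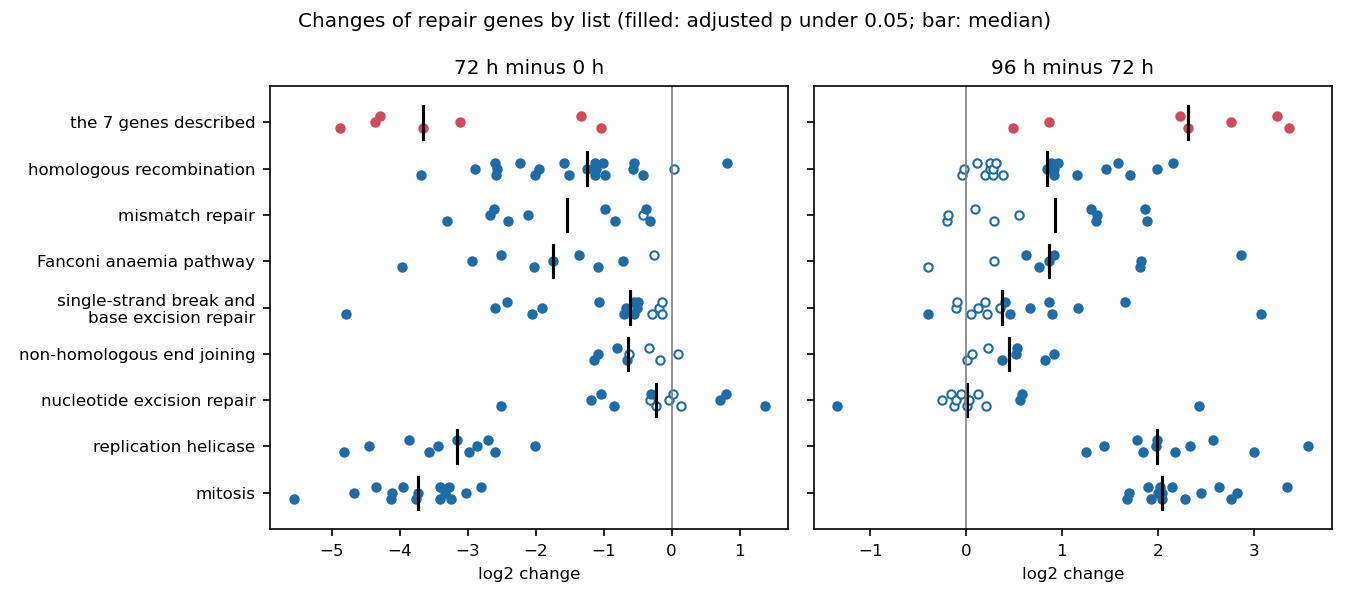
Log2 change of each tested gene at 72 h minus 0 h and at 96 h minus 72 h, by list, with filled points where the limma adjusted p is under 0.05 and a black bar at the median. The 7 genes described are red and are in no other row, and most recombination, mismatch repair, helicase and mitotic genes lie left of 0 at 72 h and right of it at 96 h.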

How the data were processed

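The deposited table holds 1 log2 value per probe set and array, and the submitters' processing notes name GCRMA. The log2 scale was read from the values. For GCRMA, version and settings are not given in the sources. GCRMA compresses dim values, and no detection calls were used. Of 22277 probe sets 62 were controls, and 12257 others reached log2 4 on at least 2 of 16 arrays.

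Samples were grouped by the hours in the labels. limma 3.58.1 in R 4.3.3 fitted 1 mean per time over all arrays (10 residual degrees of freedom, eBayes with a trend). Adjusted p-values are Benjamini-Hochberg over all probe sets within a comparison, with a threshold of 0.05. The fit was tested on simulated data. Figures used matplotlib 3.10.9.

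Members and gene lists were chosen with earlier results of these data known. In each list the genes named are those with the largest changes past the threshold at 72 h against 0 h. Partners, FLI1 and E2F1 were measured at all times and are given at some of them. The 3 nearest profiles per member were computed, and the closest of these are named.

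The labels state no pairing. Over 0, 18 and 36 h, the deviations of same-numbered arrays from their group means correlated at 0.191 to 0.581 in 9 pairs. They correlated at -0.561 to 0.508 in 24 pairs of different numbers. Replicate 3 of 0 h was closer to replicate 2 of 18 h (0.508) than to replicate 3 (0.446). Replicate 2 of 0 h was closer to replicate 2 of 18 h (0.517) than to replicate 3 (0.377). These values do not clearly tell replicates 2 and 3 apart, so pairing by number was an assumption. Pairing was not checked at the later times, to which the block below was also applied. A replicate block was an alternative, beside other filters, scalings, array weights, an ACTB covariate and leaving out each array. For comparisons among 0, 18 and 36 h the block was fitted to the arrays of those times alone.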

Additional observations from a re-analysis of the deposited data

How the results depend on the processing

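Over 29 alternatives, 16 of which left out 1 array, the 9 probe sets gave 2304 values, of which 0 reversed, 36 lost their call, 14 gained one and 2254 did neither. All 9 remained lower at 36, 53 and 72 h than at 0 h in every alternative that left out 1 array. Leaving out 1 array gave 5 to 7 of 9 at 18 h and 8 to 9 of 9 at 96 h against 0 h, 7 to 9 at 36 h against 18 h, and 7 to 8 at 96 h against 72 h. At 53 h against 36 h the count was 1 to 2 with 1 array left out, and 1 with no filter, without a trend in eBayes, or with replicates 2 and 3 averaged, an alternative chosen after seeing the data.

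With the replicate block, RAD51AP1 (log2 change -0.49, limma adjusted p = 0.0322) and RAD54L (-0.86, 0.044) passed at 18 h against 0 h, so 8 of 9 did. For comparisons among 0, 18 and 36 h this fit used the arrays of those times alone, so the block and the arrays both changed. The share of all probe sets that passed with the block is not given here. The block gave 1 of 9 at 53 h against 36 h, where PARP1 was lost (-0.32, 0.0791), and 8 of 9 at 96 h against 0 h, where RAD54L was lost (-0.84, 0.0652). It added the second MSH6 probe set at 36 h against 18 h (0.0121) and changed no other call of the 9 probe sets.

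RAD54L at 96 h against 0 h lost its call without any of 10 single arrays, replicates 1, 2 or 3 of 0 h, 2 of 18 h, 2 of 36 h, either of 53 h or 72 h, and 2 of 96 h (adjusted p = 0.0505 to 0.327). With values below log2 4 set to 4, the dim BRCA1 probe set changed by -0.13 between 36 h and 18 h, and by 0.03 between 96 h and 72 h. The cause of these losses was not tested, apart from the floor, which removes the difference by its construction.

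The share of all probe sets that passed in either direction moved more. It differs from the backgrounds above, which count 1 direction. With no filter, 12.2% passed at 18 h against 0 h, 39.7% at 53 h against 0 h, 21.7% at 36 h against 18 h, 4.33% at 53 h against 36 h, 6.67% at 72 h against 53 h, and lastly 12.1% at 96 h against 72 h, where more probe sets were tested. In the fit described above, the shares in either direction were 26.8%, 63.5%, 40.6%, 10.2%, 14.1% and 24.8%. Array weights gave 45.6% at 18 h against 0 h, 62.8% at 36 h against 18 h, and lastly 17.8% at 53 h against 36 h. Averaging replicates 2 and 3 gave 14.7%, 22.4% and 3.88% in these 3 comparisons and 9.37% at 72 h against 53 h, where the ACTB covariate gave 7.5%. With 1 array left out, the shares ran over 16.4% to 30.3% at 18 h against 0 h, 3.59% to 13% at 53 h against 36 h, 5.77% to 16.9% at 72 h against 53 h, and lastly 14.1% to 27.7% at 96 h against 72 h. Changes near log2 4 rest on few arrays and on compressed dim values.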

Other observations

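Other repair pathways were counted in the same way, beside 39% of all genes lower and 29.2% higher at 72 h against 0 h. Of 9 tested Fanconi anaemia genes, 8 were lower at 72 h than at 0 h (median log2 change -1.74), led by FANCI, a subunit of the complex that marks crosslinks, at -3.96 ± 0.25. BRIP1, the helicase that binds BRCA1, was at least 4.58-fold lower. Of 16 tested single-strand break and base excision repair genes, 12 were lower (median -0.62). NEIL3, a glycosylase, was at least 14.4-fold lower. Of 8 tested end joining genes, 4 were lower (median -0.64), a share near that of all genes, with PRKDC, the catalytic kinase subunit of that pathway, at -1.15 ± 0.15.

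Of 13 tested nucleotide excision repair genes, 5 were lower and 3 higher at 72 h than at 0 h (median -0.23), shares near those of all genes. At 18 h against 0 h, 4 of these 13 were higher and the other 9 did not pass, where 14.4% of all genes were higher. XPC, which recognises helix-distorting damage, rose by 1.37 ± 0.09 at 72 h against 0 h and fell by 1.34 ± 0.11 at 96 h against 72 h. DDB2, which hands ultraviolet damage to XPC, was higher at 18 h than at 0 h (log2 change 0.44, limma adjusted p = 0.0485). It then fell by 2.51 ± 0.17 at 72 h against 0 h and rose by 2.43 ± 0.20 at 96 h against 72 h. No explanation was tested.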
